A study of Mus musculus with 12 samples.

Results

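Resting mouse OT-I/Cas9 CD8 T cells that carried a guide RNA against Tmed10 were compared directly with resting control-guide cells that had been given AGN192403. The 4 libraries of this comparison, of 12 in the series, are the 2 named for Tmed10 at rest and the 2 named for the control guide with AGN at rest. OT-I cells carry a transgenic T cell receptor that recognises an ovalbumin peptide, and the mice also express the Cas9 nuclease with EGFP. All cells came from spleen and had been activated on antibodies to CD3 and CD28, transduced with a retroviral guide RNA, selected on puromycin, and kept in culture with IL-2, IL-7 and IL-15. Resting therefore means not restimulated. The knockout cells (genotype Tmed10 KO) received water as vehicle, the AGN192403 cells (genotype Ctrl) received the compound at 100 µM for 24 h, and the control cells (genotype Ctrl, also 2 libraries) received water. The knockout had lasted for days and was made in a selected cell population, not in a clone. No library combines the guide with the compound, so genotype, guide, duration and treatment differ together and their parts cannot be told apart. The labels do not say whether replicates are separate mice or cultures, so the p-values may measure technical spread only. At rest, variance between the 2 replicates was 1.14 times counting noise in knockout libraries and 1.38 times in AGN192403 libraries. In resting control libraries it was 2.28 times counting noise (all as chi-square per degree of freedom). Over all 12 libraries the common biological coefficient of variation was 0.0306.

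Polyadenylated RNA was sequenced, and the table holds whole read counts per gene. The resting libraries of the comparison held between 9089350 and 16070889 counts, which limits the precision of genes with few reads. Levels are given as CPM, the TMM-scaled count relative to library size. They are not corrected for gene length, so they compare groups for 1 gene and not genes with each other. The CD8 T cell markers Cd3d, Cd3e, Cd3g, Cd8a, Cd8b1, Cd2, Cd5, Lck, Trac, Trbc1, Gzmb and Prf1 were all detected. The sum of these 12 ranged from 13000 to 13100 CPM in knockout libraries and from 12500 to 12700 CPM in AGN192403 libraries. In control libraries it was higher than in both, at 13900 and 14300 CPM. Gzmb, an effector gene, made up 8550 to 8610 CPM of the sum in knockout libraries and 8450 to 8570 CPM in AGN192403 libraries. Its level in control libraries was 9430 and 9810 CPM.

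TMED10 is a p24-family cargo receptor of the early secretory pathway. These proteins span the membrane, assemble with each other, and help to sort cargo into COPII vesicles that leave the endoplasmic reticulum (ER) and COPI vesicles that return from the Golgi. TMED9, its relative, binds AGN192403 (also called BRD4780), a compound first described as a ligand of imidazoline sites. In CD8 T cells the secretory pathway carries inhibitory receptors such as PD-1, the product of Pdcd1, to the surface. Cells answer a loaded or stressed secretory pathway by transcription factors such as XBP1 and ATF6 (ER), CREB3 (Golgi), SREBP2 (sterol supply) and ATF4 (amino acid supply and translation).

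The targeted gene was checked first. Tmed10 had 61.5 and 65.1 CPM in Tmed10 knockout cells, against 133 and 138 CPM in AGN192403-treated cells and 116 and 117 CPM in control cells (log2 fold change -1.11 ± 0.052 SE, adjusted p = 2.34e-13). The knockout libraries were the lowest, with no overlap with the other groups, and the compound moved this mRNA the opposite way from the guide, at 0.22 above control on the log2 scale. A guide cuts DNA, and the mRNA level does not measure the protein. The other p24 genes were lower in knockout than in AGN192403 cells where they differed. Of 9 TMED genes tested, Tmed10 included, 5 were lower and 0 higher, where 7.78% and 8.83% of the 13167 genes tested were lower and higher. Tmed2, which pairs with TMED10 in the p24 complex, had 32.1 and 30.1 CPM in Tmed10 knockout cells, against 41.6 and 43.3 CPM in AGN192403-treated cells and 30.1 and 32.1 CPM in control cells (log2 fold change -0.44 ± 0.071 SE, adjusted p = 5.86e-05). Knockout and control libraries overlapped for Tmed2, and the AGN192403 libraries stood above both. Tmed9 had 188 and 189 CPM in knockout cells and 228 and 222 CPM in AGN192403 cells, with 162 and 165 CPM in control cells (log2 fold change -0.26 ± 0.049 SE, adjusted p = 4.43e-04). Tmed3 had 60.6 and 60.1 CPM in knockout cells and 77.99 and 78.9 CPM in AGN192403 cells, with 44.7 and 47.6 CPM in control cells (log2 fold change -0.38 ± 0.059 SE, adjusted p = 4.11e-05). For both of these genes the knockout cells lay between the control and the AGN192403 cells. Tmed7 was the fifth, at -0.21 on the log2 scale, and Tmed1, Tmed4, Tmed5 and Tmed8 did not pass the test.

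**Figure D1:**
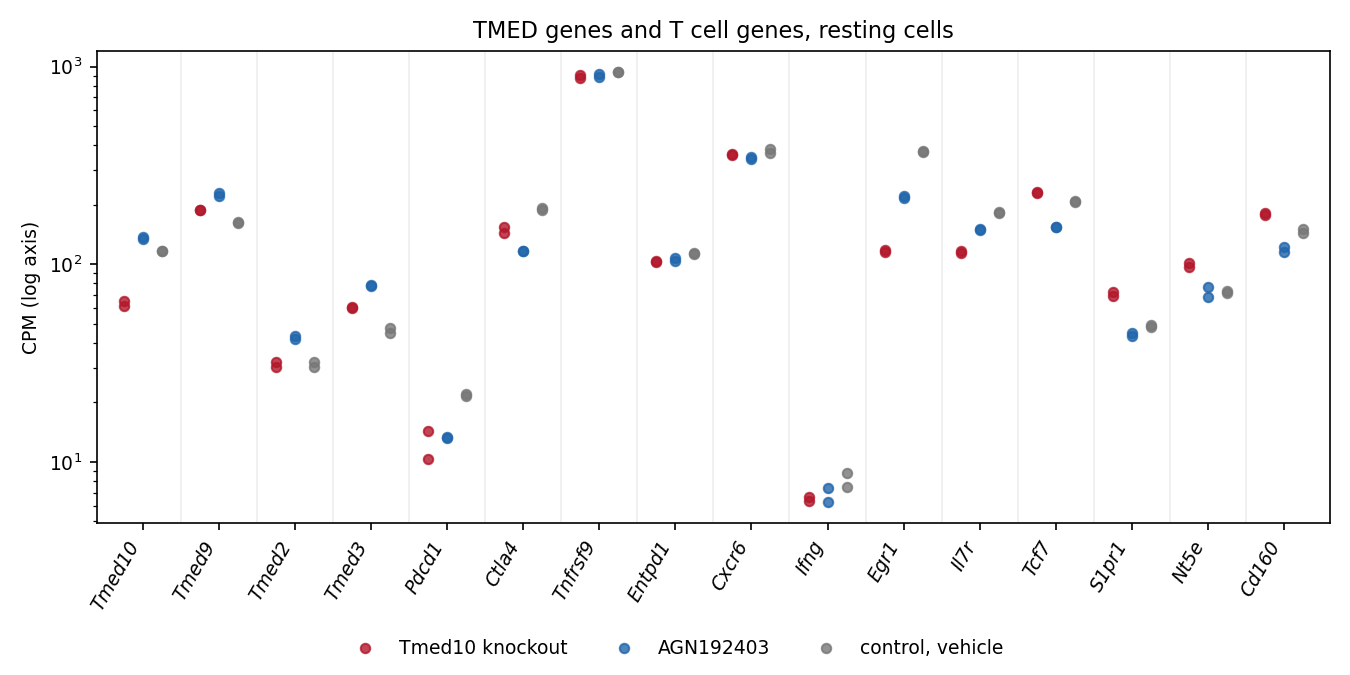
CPM (log axis) of TMED genes and T cell genes in each resting library, 2 points a group, with knockout red, AGN192403 blue and control grey. Tmed10 was lowest in knockout cells (61.5 and 65.1 CPM), while Pdcd1 was below control in both perturbations.

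In the direct comparison 2186 genes passed an adjusted p of 0.05 (16.6% of 13167), 1162 of them higher (8.83%) and 1024 lower (7.78%) in knockout than in AGN192403 cells, by edgeR's quasi-likelihood test over all 12 libraries with Benjamini-Hochberg adjustment. The libraries of knockout and AGN192403 did not overlap in 57.5% of all genes tested, so non-overlap alone was common. Most differences were small. The median absolute log2 fold change of the called genes was 0.277, and a 2-fold change was reached by 25 of the rises and 29 of the falls. Set against the same control libraries, which the next values share, knockout cells had 979 called genes (7.44%, with 2.81% higher and 4.63% lower) and AGN192403 cells had 3341 (25.4%, with 11.6% higher and 13.7% lower). Of the 1024 genes lower in knockout cells, the control mean lay below both perturbations in 594, between them in 363 and above both in 67. Of the 1162 higher genes, it lay above both in 569, between them in 551 and below both in 42. Among genes not called it lay below both in 36.5% and above both in 36.8%. Most of the genes that separated the perturbations were called against control in AGN192403 cells only: 775 of the 1162 higher (66.7%) and 622 of the 1024 lower (60.7%). Knockout alone was called in 65 (5.59%) and 73 (7.13%). Among genes not called in the direct comparison, the shares were 11.6% for AGN192403 only and 1.58% for knockout only. The same perturbed libraries enter the direct comparison and the comparisons with control, so this split is in part built in. The count moved with the libraries used: 1195 genes were called without knockout replicate 1, 1357 without knockout replicate 2, 1511 without AGN192403 replicate 1 and 1056 without AGN192403 replicate 2. With DESeq2, which scales by median ratios, 1283 genes were called, 844 higher and 439 lower. The share of calls that were higher was 53.2% with TMM, 65.5% with median-ratio size factors in the same test and 46.2% with library totals.

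**Figure D2:**
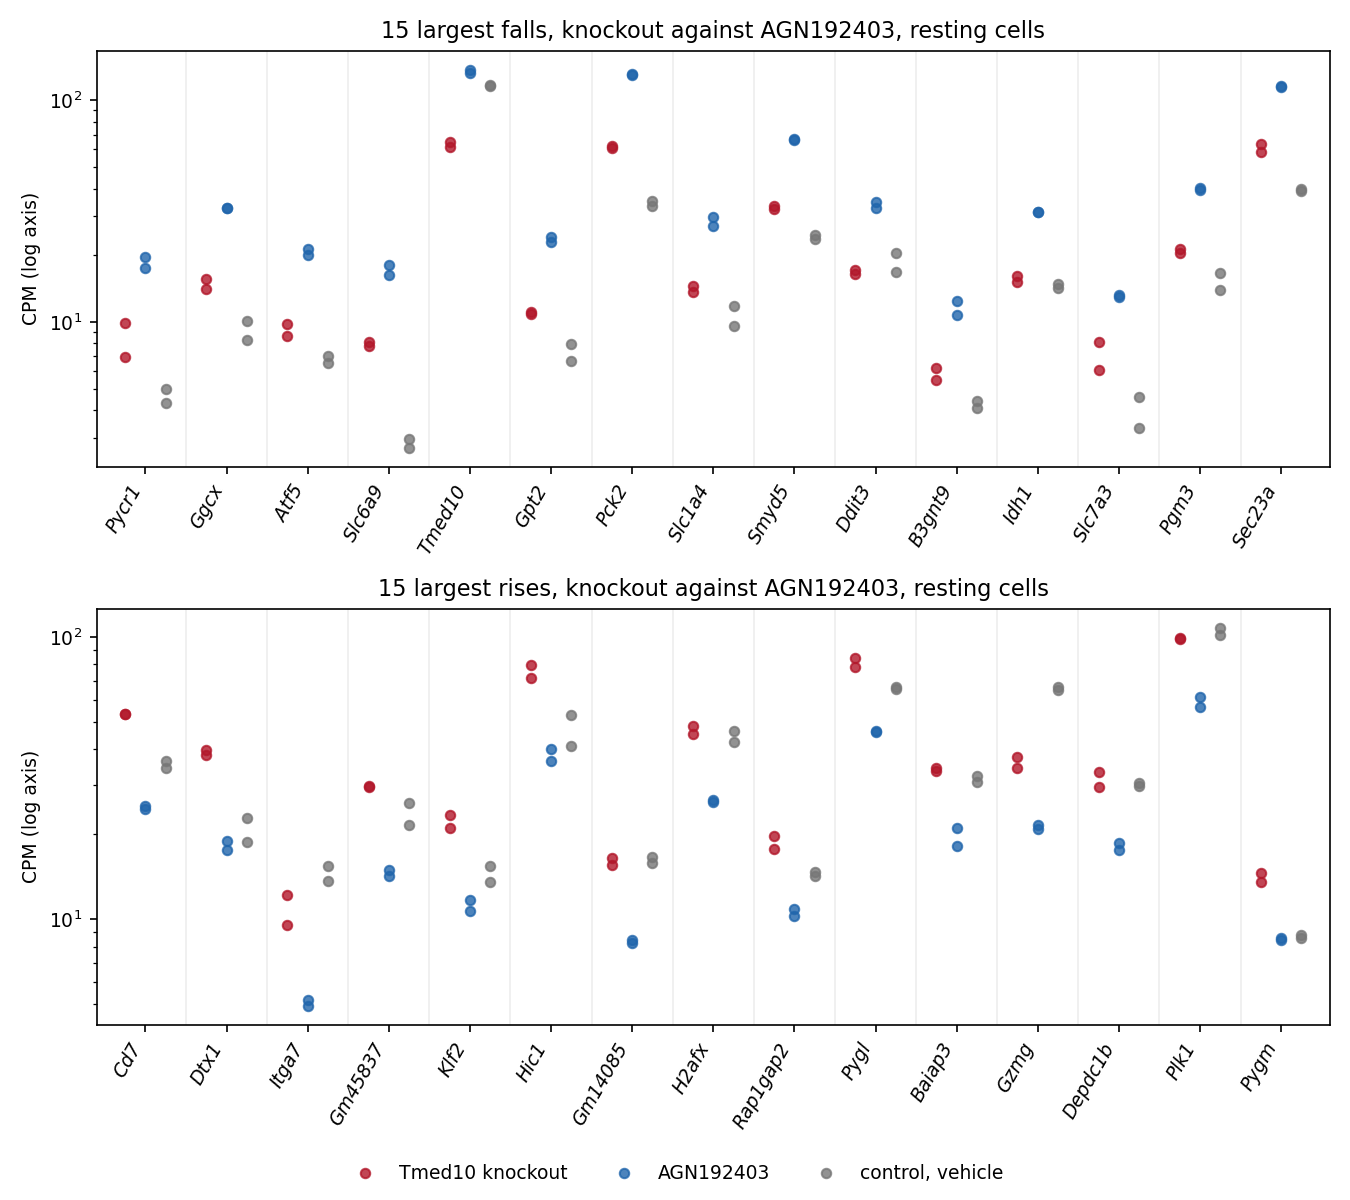
CPM (log axis) in each resting library for the 15 largest falls (upper) and the 15 largest rises (lower) in knockout against AGN192403 cells, 2 points a group. For most of the falls, such as Pck2 at 62.1 and 60.8 CPM in knockout cells, the knockout libraries lie between control and AGN192403, except for Tmed10 and Ddit3, where the knockout mean is below control.

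Most genes of vesicle traffic between ER and Golgi were lower in knockout than in AGN192403 cells. Of 15 COPI coat genes and regulators tested, 12 were lower and 0 higher in knockout cells, with a median log2 fold change of -0.561 where the median of all genes was -0.00141. Copb2, a coatomer subunit, had 300.1 and 289.7 CPM in Tmed10 knockout cells, against 509 and 526 CPM in AGN192403-treated cells and 216 and 221 CPM in control cells (log2 fold change -0.81 ± 0.041 SE, adjusted p = 1.18e-12). The 3 groups did not overlap, with control lowest and AGN192403 highest. Gbf1, the exchange factor that loads ARF1 at the cis-Golgi, had 147 and 148 CPM in Tmed10 knockout cells, against 269.6 and 255 CPM in AGN192403-treated cells and 127 and 125 CPM in control cells (log2 fold change -0.83 ± 0.043 SE, adjusted p = 1.18e-12). Arf4, a small GTPase of the same route, had 117 and 119 CPM in knockout cells and 193 and 198 CPM in AGN192403 cells, with 85.4 and 93.9 CPM in control cells (log2 fold change -0.74 ± 0.052 SE, adjusted p = 2.27e-10). The count was 12 without any 1 of the 4 libraries. Against control, 11 of the 15 were higher in knockout cells (median 0.293) and 14 were higher in AGN192403 cells (median 0.854).

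The COPII coat, which buds from the ER, and the receptors that retrieve or sort cargo were also lower in knockout than in AGN192403 cells where they passed the test. Of 17 COPII genes tested 11 were lower in knockout cells and 0 higher (median -0.318), and of 24 KDEL receptors, cargo receptors and tethers 14 were lower and 0 higher (median -0.233). Sec23a, an inner coat subunit, had 63.5 and 58.2 CPM in Tmed10 knockout cells, against 115.4 and 116 CPM in AGN192403-treated cells and 39.2 and 39.7 CPM in control cells (log2 fold change -0.92 ± 0.051 SE, adjusted p = 3.83e-12). It was above control in both perturbations, without overlap, and among the 15 largest falls of the comparison. Sec13 and Sec31a, which form the outer cage, had log2 fold changes of -0.80 and -0.67, and Sec24d, a cargo-binding subunit, had -0.64. Kdelr3, a receptor that returns ER residents, was low in control cells, with 4.999 and 6.004 CPM in Tmed10 knockout cells, against 10.3 and 10.01 CPM in AGN192403-treated cells and 2.10 and 1.66 CPM in control cells (log2 fold change -0.91 ± 0.15 SE, adjusted p = 9.61e-05). Kdelr2, its paralogue, had 95.2 and 87.3 CPM in knockout cells and 150.1 and 149 CPM in AGN192403 cells, with 65.04 and 70.1 CPM in control cells (log2 fold change -0.70 ± 0.051 SE, adjusted p = 3.53e-10). Sec22b, a vesicle SNARE, and Yipf5, a Golgi membrane protein, differed by -0.72 and -0.69. In control comparisons, 5 COPII genes were higher in knockout cells and 13 in AGN192403 cells.

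Several Golgi genes outside the lists were named after their values were seen. Creb3, which encodes the Golgi-responsive transcription factor, had 42.2 and 41.04 CPM in knockout cells and 73.4 and 74.9 CPM in AGN192403 cells, with 30.97 and 35.6 CPM in control cells (log2 fold change -0.83 ± 0.065 SE, adjusted p = 1.19e-09). Golgb1, a large Golgi tether also called giantin, had 122 and 123 CPM in knockout cells and 214 and 229 CPM in AGN192403 cells, with 142 and 126 CPM in control cells (log2 fold change -0.86 ± 0.074 SE, adjusted p = 5.84e-09). In Golgb1 the knockout cells were not above control. Acbd3, a Golgi scaffold, averaged 75.3 CPM in knockout cells against 139.7 CPM in AGN192403 cells (log2 fold change -0.89 ± 0.049 SE, adjusted p = 2.79e-12), and Golga5, a golgin, averaged 59.3 CPM in knockout cells against 94.3 CPM in AGN192403 cells (log2 fold change -0.66 ± 0.056 SE, adjusted p = 4.03e-09).

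Promoters of some of these genes share a short motif, and they are shown because the members moved together. The letters TGACGTGG, an element known from unfolded protein response promoters, were searched on both strands in RefSeq windows (GRCm38.p6, 250 bases before to 50 after the start), after the values had been seen. They share the core ACGTG with the TFEB element CACGTGAC. The motif was present in 5 of 16 promoters of 14 COPI genes (31.2%; Copb1, Copb2, Gbf1 and 2 starts of Arf1), in 2 of 21 COPII promoters (9.52%; Sec23a and Sec24d) and in 2 of 22 promoters of the receptor list (9.09%; Kdelr3 and Stx5a), where 0.676% of all 32851 promoters held it. In the lists of ER genes described next it was in 1 of 32 chaperone and unfolded protein response promoters (3.12%) and in 0 of 33 N-glycan promoters. A match is a string of letters and not a shown binding site. Stretches around the match, 5′ to 3′ on the strand of the gene with the match or its reverse complement in capitals, read as follows.
Copb2, chr9:98563694-98563760, plus strand: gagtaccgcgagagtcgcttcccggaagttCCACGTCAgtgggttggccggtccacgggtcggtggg
Gbf1, chr19:46152516-46152583, plus strand: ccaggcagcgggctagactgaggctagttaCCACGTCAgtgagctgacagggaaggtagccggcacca
Copb1, chr7:114254671-114254738, minus strand: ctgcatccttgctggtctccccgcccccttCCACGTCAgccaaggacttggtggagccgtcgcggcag
Sec24d, chr3:123267440-123267507, plus strand: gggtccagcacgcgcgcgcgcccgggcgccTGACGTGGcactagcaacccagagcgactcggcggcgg
Kdelr3, chr15:79516348-79516415, plus strand: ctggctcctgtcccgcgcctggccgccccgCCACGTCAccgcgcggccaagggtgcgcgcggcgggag
Sec23a, chr12:59011988-59012041, minus strand: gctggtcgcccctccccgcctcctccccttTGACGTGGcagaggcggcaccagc

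Inside the ER the differences were smaller. Of 36 chaperone and unfolded protein response genes, 19 were lower in knockout cells and 0 higher (median -0.159), and this count was 12 without knockout replicate 1 or AGN192403 replicate 2 and 14 without knockout replicate 2. Against control, 7 were higher in knockout cells and 20 in AGN192403 cells. Selenos, an ER-associated degradation factor, had 56.7 and 57.6 CPM in knockout cells and 78.8 and 85.2 CPM in AGN192403 cells, with 51.6 and 54.4 CPM in control cells (log2 fold change -0.53 ± 0.059 SE, adjusted p = 3.08e-07). Hyou1, an ER chaperone, had 201 and 202 CPM in knockout cells and 263 and 268 CPM in AGN192403 cells, with 186 and 189.6 CPM in control cells (log2 fold change -0.40 ± 0.046 SE, adjusted p = 5.91e-07). Neither gene differed between knockout and control cells by the test. Sec61a1, the core of the translocation channel, differed by -0.37. Of 33 genes of N-glycan assembly 11 were lower and 0 higher (median -0.128). Pgm3, an enzyme in the synthesis of the N-acetylglucosamine sugar donor, had 20.5 and 21.3 CPM in Tmed10 knockout cells, against 40.2 and 39.2 CPM in AGN192403-treated cells and 16.7 and 13.9 CPM in control cells (log2 fold change -0.93 ± 0.084 SE, adjusted p = 1.2e-08). Stt3a, the catalytic subunit of an oligosaccharyltransferase, differed by -0.60, and Alg3, a mannosyltransferase, by -0.61. Ggcx, the vitamin K-dependent carboxylase of the ER, was in no list and was the second largest fall, with 14.01 and 15.6 CPM in knockout cells and 32.5 and 32.5 CPM in AGN192403 cells, with 10.1 and 8.32 CPM in control cells (log2 fold change -1.15 ± 0.1 SE, adjusted p = 7.46e-09).

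Among genes of amino acid supply that ATF4 is known to control, more were lower than higher in knockout compared with AGN192403 cells. Among the 15 largest falls were Pycr1, Atf5, Slc6a9, Gpt2, Pck2, Slc1a4, Ddit3 and Slc7a3. Pycr1, an enzyme of proline synthesis, had 6.97 and 9.93 CPM in Tmed10 knockout cells, against 17.4 and 19.7 CPM in AGN192403-treated cells and 4.995 and 4.31 CPM in control cells (log2 fold change -1.21 ± 0.13 SE, adjusted p = 1.57e-07). Its 2 knockout libraries were spread, yet both lay between control and AGN192403. Pck2, the mitochondrial phosphoenolpyruvate carboxykinase, had 62.1 and 60.8 CPM in Tmed10 knockout cells, against 132 and 129.9 CPM in AGN192403-treated cells and 33.3 and 34.96 CPM in control cells (log2 fold change -1.09 ± 0.05 SE, adjusted p = 2.34e-13). Gpt2, an alanine aminotransferase, had 10.9 and 11.1 CPM in knockout cells and 24.2 and 23.03 CPM in AGN192403 cells, with 6.69 and 7.94 CPM in control cells (log2 fold change -1.10 ± 0.099 SE, adjusted p = 1.14e-08). Asns, asparagine synthetase, had 109 and 109 CPM in knockout cells and 197 and 202 CPM in AGN192403 cells, with 76.3 and 81.3 CPM in control cells (log2 fold change -0.88 ± 0.05 SE, adjusted p = 5.84e-12). Each of these 4 genes, named because they were lower in knockout than in AGN192403 cells, was above control in both perturbations. Over the list of amino acid synthesis and PCK2 genes, 7 of 13 were lower and 1 was higher (Glul), with a median of -0.369.

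Amino acid transporters and tRNA synthetases also held more falls than rises. Of 18 amino acid transporters tested 10 were lower in knockout cells and 1 was higher (Slc43a3), with a median of -0.203. Slc6a9, a glycine transporter, had 8.15 and 7.75 CPM in Tmed10 knockout cells, against 16.3 and 18.1 CPM in AGN192403-treated cells and 2.698 and 2.95 CPM in control cells (log2 fold change -1.11 ± 0.11 SE, adjusted p = 5.96e-08). It was lowest in control cells, and the 3 groups did not overlap. Slc7a5, the light chain of the large neutral amino acid transporter, had 329 and 325 CPM in knockout cells and 513 and 502 CPM in AGN192403 cells, with 259 and 271 CPM in control cells (log2 fold change -0.63 ± 0.039 SE, adjusted p = 2.15e-11). Slc1a4 and Slc7a3, carriers of small neutral and of cationic amino acids, differed by -1.03 and -0.94. Of 20 cytosolic aminoacyl-tRNA synthetases 12 were lower and 0 higher (median -0.389), with Cars at -0.58, Aars at -0.54, Sars at -0.53 and Iars at -0.52. The count was 11 or 12 without any 1 library, and against control 8 were higher in knockout cells and 14 in AGN192403 cells.

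The ATF4 regulators themselves held calls in both directions. Of 19 tested, 8 were lower in knockout cells and 2 were higher (Ddit4 and Eif2ak2), with a median of -0.231. Without knockout replicate 1 these counts were 5 and 0, with a median of -0.0753, and 0 were higher without AGN192403 replicate 2. Atf5, a target and relative of ATF4, had 9.81 and 8.62 CPM in Tmed10 knockout cells, against 21.2 and 20.1 CPM in AGN192403-treated cells and 6.99 and 6.51 CPM in control cells (log2 fold change -1.13 ± 0.11 SE, adjusted p = 3.72e-08). Ddit3, which encodes the stress factor CHOP, had 17.2 and 16.4 CPM in Tmed10 knockout cells, against 34.9 and 32.5 CPM in AGN192403-treated cells and 20.5 and 16.8 CPM in control cells (log2 fold change -0.99 ± 0.09 SE, adjusted p = 1.2e-08). Ddit3 did not differ between knockout and control cells by the test, nor did Chac1, a glutathione-degrading enzyme, at 4.69 and 4.69 CPM in knockout cells and 9.72 and 8.37 CPM in AGN192403 cells, with 4.40 and 3.86 CPM in control cells (log2 fold change -0.93 ± 0.15 SE, adjusted p = 7.63e-05). Trib3, a pseudokinase that dampens ATF4, had 66.4 and 65.7 CPM in knockout cells and 108 and 104 CPM in AGN192403 cells, with 47.5 and 48.6 CPM in control cells (log2 fold change -0.68 ± 0.057 SE, adjusted p = 3.67e-09) and was above control in both. Of 17 serine and one-carbon enzymes 7 were lower and 3 higher. The mitochondrial enzyme Shmt2 fell to 221 CPM in knockout cells against 295 CPM in AGN192403 cells, while Tyms, thymidylate synthase, was higher in knockout cells, at 0.44 on the log2 scale.

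The ATF4 composite element TGATGNAA was searched in the same windows on both strands. It was present in 4 of 12 promoters of the amino acid synthesis list (33.3%), 5 of 12 of the synthetases (41.7%), 4 of 20 of the ATF4 regulators, 4 of 22 of the transporters (18.2%) and 1 of 16 of the serine and one-carbon enzymes (6.25%), where 3.97% of all promoters held it. Pycr1 stands in 2 of these lists. Promoters were matched by symbol for 12 of the 20 synthetases and for 10 of the 13 synthesis genes. Stretches with the match or its reverse complement in capitals are given for genes described above.
Asns, chr6:7693195-7693262, minus strand: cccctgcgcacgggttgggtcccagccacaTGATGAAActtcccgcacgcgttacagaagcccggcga
Pck2, chr14:55540133-55540200, plus strand: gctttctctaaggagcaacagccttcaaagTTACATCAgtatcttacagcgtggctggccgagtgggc
Aars, chr8:111033700-111033767, plus strand: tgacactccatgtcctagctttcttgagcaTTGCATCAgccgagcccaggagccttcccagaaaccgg
Chac1, chr2:119351019-119351086, plus strand: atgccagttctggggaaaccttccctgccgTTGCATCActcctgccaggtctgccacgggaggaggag

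Lipid genes separated the perturbations with few calls in the knockout against control. Of 32 genes of cholesterol synthesis, uptake and efflux 20 were lower in knockout than in AGN192403 cells and 2 were higher (Scap and Mylip), with a median of -0.287, and 0 were higher without knockout replicate 1 or AGN192403 replicate 2. Against control, 0 of the 32 were higher in knockout cells and 2 lower, and in AGN192403 cells 18 were higher and 2 lower. Of all genes tested, 2.81% were higher and 4.63% lower in knockout cells, so few knockout calls are usual for a list of this size. In AGN192403 cells 11.6% of all genes were higher and 13.7% lower. Fdps, farnesyl diphosphate synthase, had 39.6 and 36.3 CPM in Tmed10 knockout cells, against 63.1 and 67.4 CPM in AGN192403-treated cells and 40.6 and 40.02 CPM in control cells (log2 fold change -0.77 ± 0.064 SE, adjusted p = 3e-09). Knockout and control libraries were close, and AGN192403 stood above both. Dhcr7, the last step of cholesterol synthesis, had 52.6 and 51.2 CPM in Tmed10 knockout cells, against 80.5 and 89.5 CPM in AGN192403-treated cells and 46.3 and 50.4 CPM in control cells (log2 fold change -0.72 ± 0.062 SE, adjusted p = 6.3e-09). Insig1, the sterol-sensing anchor of SREBP, and Fdft1, squalene synthase, differed by -0.49 and -0.47, and neither differed between knockout and control cells by the test. Of 14 fatty acid genes 7 were lower and 0 higher. Scd1, the stearoyl-CoA desaturase, lay on both sides of control, with 43.02 and 43.4 CPM in knockout cells and 65.8 and 66.3 CPM in AGN192403 cells, with 54.6 and 55.8 CPM in control cells (log2 fold change -0.61 ± 0.057 SE, adjusted p = 1.85e-08). The sterol element core TCACNCCA was present in 3 of 31 promoters of the cholesterol list (9.68%), 0 of 12 promoters of the fatty acid list and 4.36% of all.

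**Figure D3:**
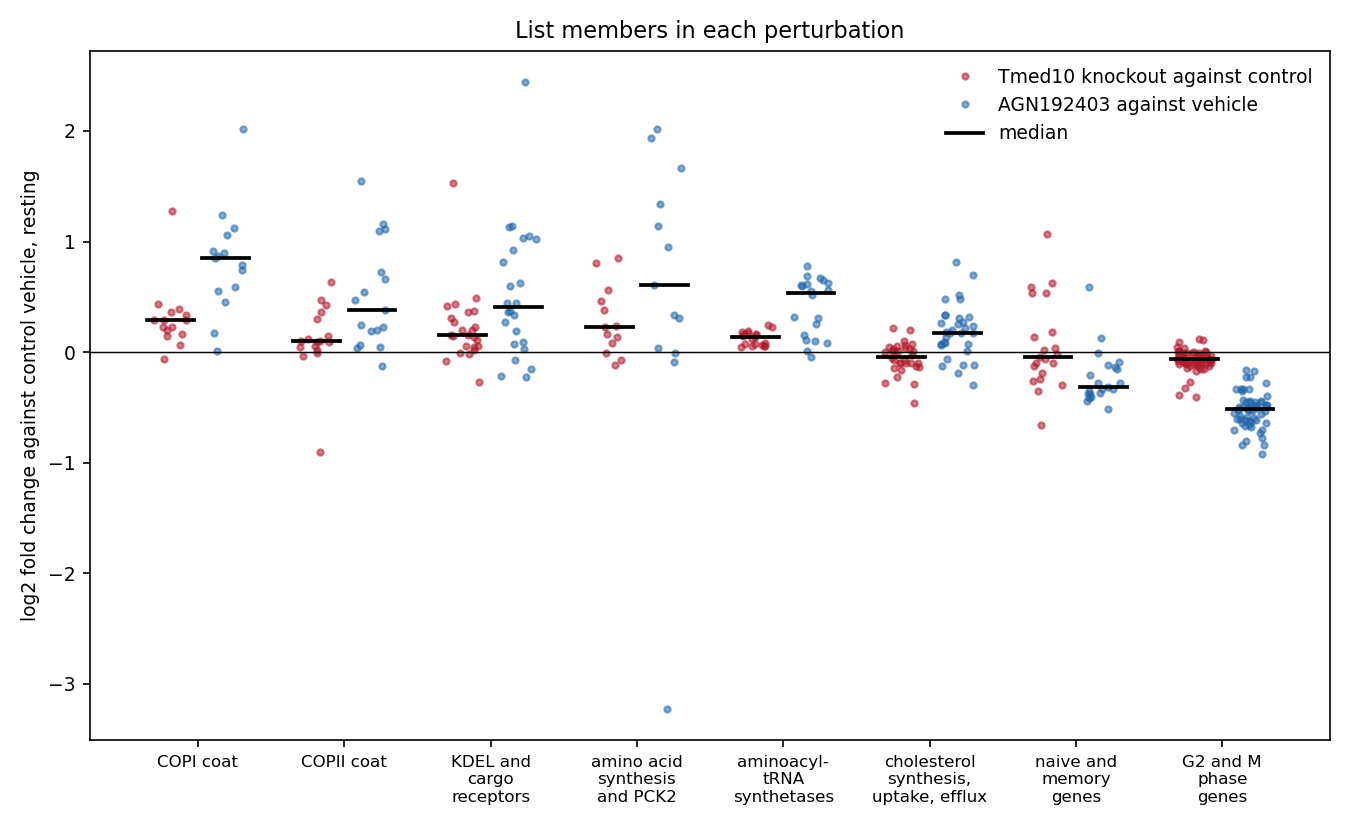
Log2 fold change of every tested member of 8 gene lists in knockout cells against control (red) and in AGN192403 cells against vehicle (blue), with black lines at the medians; both use the same 2 control libraries. COPI medians were 0.293 and 0.854, cholesterol medians -0.0405 and 0.176, and G2 and M medians -0.0652 and -0.514; the lowest point is Cbs, which did not pass the test.

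Lysosomal and oxidative stress genes moved less. Of 51 genes of the lysosome, V-ATPase and autophagy 15 were lower in knockout cells and 4 higher, and without any 1 library 6 to 12 were lower and 1 or 2 higher, with the fewest lower without AGN192403 replicate 2. Sqstm1, the autophagy receptor p62, had 222 and 214 CPM in knockout cells and 296 and 300.1 CPM in AGN192403 cells, with 201 and 205 CPM in control cells (log2 fold change -0.45 ± 0.043 SE, adjusted p = 2.92e-08). Its knockout libraries were near control. The TFEB element CACGTGAC was present in 9 of 45 promoters of the list and 2.25% of all, while Tfeb itself differed by 0.45, a call that was lost with DESeq2 and without any 1 library except AGN192403 replicate 1. Of 24 NRF2 target and redox genes 5 were lower and 1 higher, against 2 lower without knockout replicate 1, 3 without AGN192403 replicate 2 and 0 higher without any 1 library. Hmox1, heme oxygenase, had 14.9 and 19.2 CPM in knockout cells and 26.1 and 26.5 CPM in AGN192403 cells, with 19.4 and 17.8 CPM in control cells (log2 fold change -0.67 ± 0.1 SE, adjusted p = 2.6e-05).

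Nearly all genes of mitosis were higher in knockout than in AGN192403 cells. Of 60 G2 and M phase genes 59 were higher and 0 lower, with a median log2 fold change of 0.467, and the only one not called was Pttg1 (0.15). Without any 1 library this count was 54 to 56. Against control, 0 of the 60 were higher in either perturbation, and 6 were lower in knockout cells and 57 in AGN192403 cells. Plk1, the mitotic kinase, had 99.4 and 98.8 CPM in Tmed10 knockout cells, against 61.5 and 56.4 CPM in AGN192403-treated cells and 102 and 108 CPM in control cells (log2 fold change 0.76 ± 0.056 SE, adjusted p = 5.04e-10). Knockout and control libraries were close and both AGN192403 libraries were far below. Cenpa, the centromere histone, had 113 and 119 CPM in knockout cells and 75.3 and 73.02 CPM in AGN192403 cells, with 133 and 122 CPM in control cells (log2 fold change 0.64 ± 0.053 SE, adjusted p = 3.33e-09). Nusap1, a spindle protein, had 155 and 156 CPM in knockout cells and 99.02 and 104 CPM in AGN192403 cells, with 155 and 157 CPM in control cells (log2 fold change 0.61 ± 0.044 SE, adjusted p = 3.53e-10). Hmmr, a spindle and hyaluronan-binding protein, had 124 and 124 CPM in knockout cells and 76.6 and 85.9 CPM in AGN192403 cells, with 122 and 133 CPM in control cells (log2 fold change 0.60 ± 0.062 SE, adjusted p = 1.09e-07). Depdc1b and H2afx, a mitotic gene and the histone of DNA damage signalling, were outside the list and among the 15 largest rises, at 0.77 and 0.82.

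Most S phase genes were also higher, by less. Of 47 tested, 29 were higher and 0 lower (median 0.241), and 22 to 24 without any 1 library. Against control, 36 were lower in AGN192403 cells and 1 was higher in knockout cells. Lig1, DNA ligase 1, had 175 and 180.1 CPM in knockout cells and 125 and 133 CPM in AGN192403 cells, with 171 and 180.5 CPM in control cells (log2 fold change 0.46 ± 0.046 SE, adjusted p = 6.02e-08), and Rrm1, the large subunit of ribonucleotide reductase, averaged 359.7 CPM in knockout cells against 272 CPM in AGN192403 cells (log2 fold change 0.40 ± 0.041 SE, adjusted p = 8.22e-08). Of 21 G1 genes 7 were higher and 1 lower, with 3 higher without AGN192403 replicate 2 and 4 without knockout replicate 1. In bulk RNA a smaller share of dividing cells and less mitotic RNA per cell cannot be told apart.

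The cell cycle homology region TTTGAA, an element of late cell cycle promoters, was present in 40 of 55 promoters of the G2 and M list (72.7%), in 4 of 40 of the S phase list (10.0%) and in 17.9% of all. In 2 of the genes above it lies just after the start, and the match is in capitals.
Cenpa, chr5:30666872-30666915, plus strand: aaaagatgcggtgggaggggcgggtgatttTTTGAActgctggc
Hmmr, chr11:40733408-40733459, minus strand: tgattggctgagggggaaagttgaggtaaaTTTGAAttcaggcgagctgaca

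**Figure D4:**
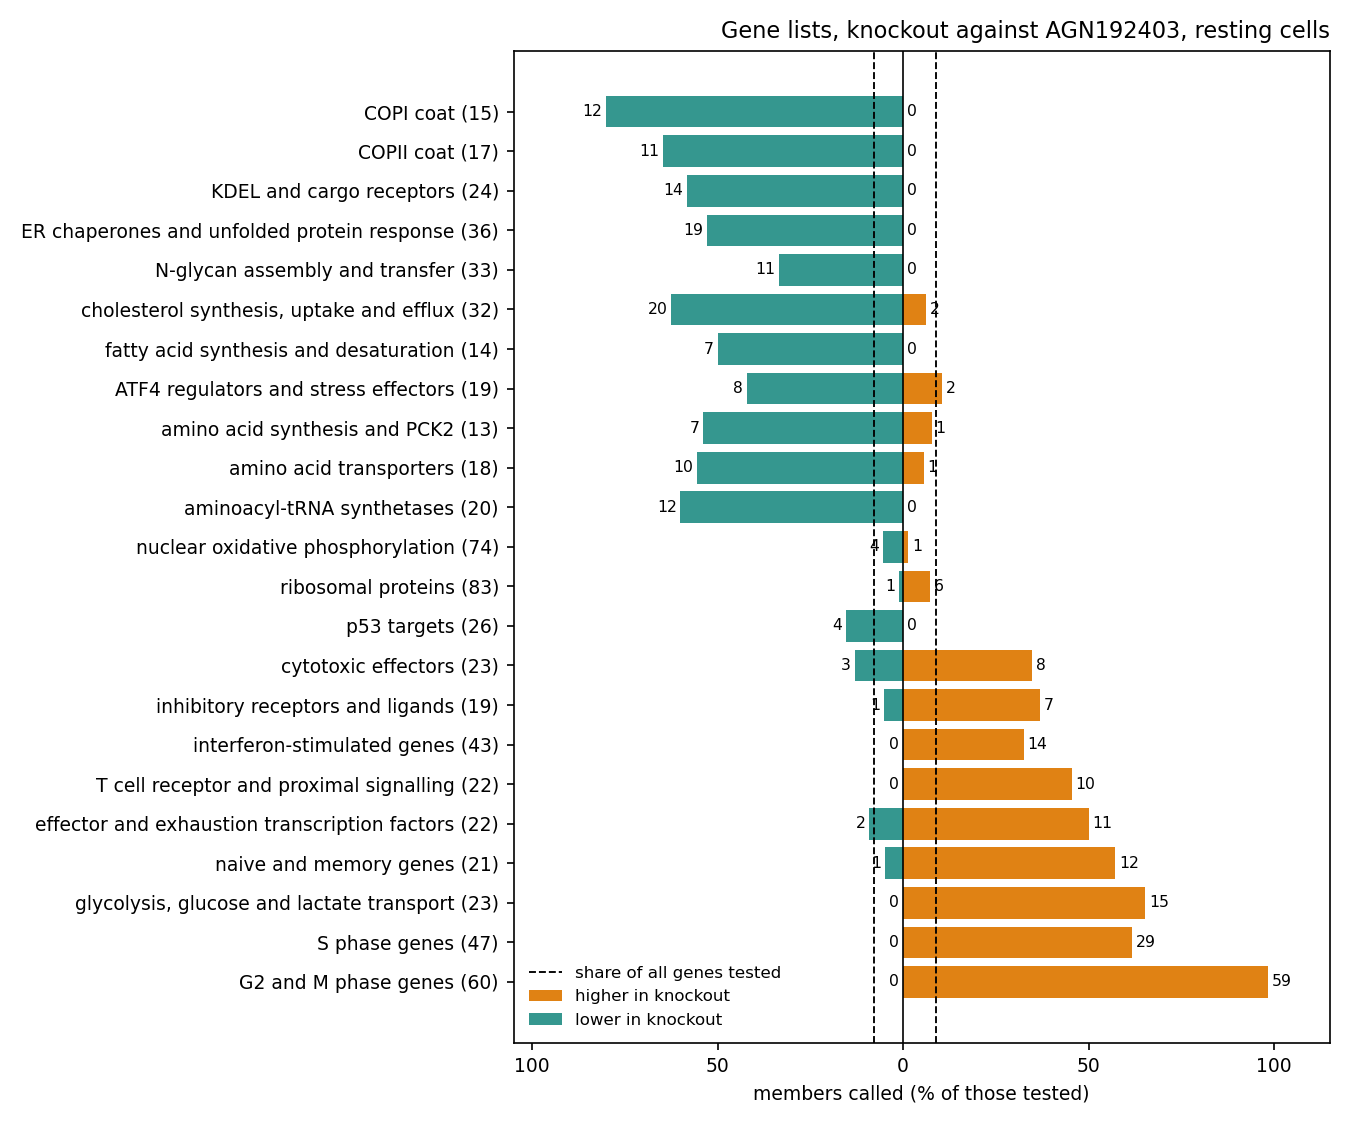
Share of tested members called higher (orange, right) or lower (teal, left) in knockout against AGN192403 cells for 23 gene lists, with the number tested in brackets, the number called at the bar ends, and dashed lines at the shares over all genes (8.83% higher, 7.78% lower). COPI coat genes stand at 12 lower of 15 and G2 and M phase genes at 59 higher of 60.

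Several of the largest rises were genes of T cell identity and traffic, for which knockout cells stood above control and AGN192403 cells at or below it. Cd7, a surface glycoprotein of T cells, had 53.5 and 53.6 CPM in Tmed10 knockout cells, against 24.5 and 25.2 CPM in AGN192403-treated cells and 34.5 and 36.4 CPM in control cells (log2 fold change 1.10 ± 0.076 SE, adjusted p = 1.5e-10). The control lay between the perturbations without overlap. Dtx1, a ubiquitin ligase that is induced by Notch, had 38.3 and 39.8 CPM in Tmed10 knockout cells, against 18.9 and 17.7 CPM in AGN192403-treated cells and 18.8 and 22.8 CPM in control cells (log2 fold change 1.10 ± 0.091 SE, adjusted p = 2.84e-09). AGN192403 and control libraries overlapped for Dtx1, and only the knockout was apart. Klf2, a transcription factor of quiescence and of exit from lymphoid organs, had 23.5 and 21.1 CPM in Tmed10 knockout cells, against 10.7 and 11.7 CPM in AGN192403-treated cells and 13.6 and 15.4 CPM in control cells (log2 fold change 1.00 ± 0.11 SE, adjusted p = 3.68e-07). S1pr1, the sphingosine receptor that KLF2 induces, had 69.1 and 72.5 CPM in knockout cells and 44.9 and 43.1 CPM in AGN192403 cells, with 48.1 and 49.2 CPM in control cells (log2 fold change 0.68 ± 0.067 SE, adjusted p = 3.81e-08). Both were raised in the knockout and not raised by the compound. Tcf7, which encodes TCF1, had 231 and 229 CPM in knockout cells and 155 and 153 CPM in AGN192403 cells, with 207 and 209.8 CPM in control cells (log2 fold change 0.58 ± 0.046 SE, adjusted p = 1.47e-09). Tcf7 did not differ between knockout and control cells by the test. Over the 21 naive and memory genes tested 12 were higher and 1 lower (median 0.258), and 9 or 10 were higher without any 1 library. The exception was Il7r, the IL-7 receptor chain, with 117 and 114 CPM in knockout cells and 149 and 151 CPM in AGN192403 cells, with 184 and 181 CPM in control cells (log2 fold change -0.38 ± 0.044 SE, adjusted p = 8.77e-07). Il7r was below control in both perturbations, further in the knockout.

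Other large rises had varied roles. Itga7, an integrin chain, had 9.57 and 12.2 CPM in knockout cells and 5.18 and 4.93 CPM in AGN192403 cells, with 15.5 and 13.7 CPM in control cells (log2 fold change 1.07 ± 0.17 SE, adjusted p = 7.05e-05), so both perturbations were below control. Hic1, a transcriptional repressor, had 71.8 and 79.8 CPM in Tmed10 knockout cells, against 40.2 and 36.4 CPM in AGN192403-treated cells and 41.1 and 52.96 CPM in control cells (log2 fold change 0.98 ± 0.091 SE, adjusted p = 1.7e-08). In activated cells the same difference was -0.08 on the log2 scale, and Hic1 was 1 of 33 genes (0.251% of those tested) whose difference changed by at least 1 on the log2 scale between the states with an adjusted p under 0.05. Pygl and Pygm, glycogen phosphorylases of liver and muscle type, were higher by 0.80 and 0.72. Rap1gap2, an inactivator of RAP1, and Baiap3, a protein of vesicle release, were higher by 0.82 and 0.78. The gene models Gm45837 and Gm14085 were higher by 1.01 and 0.93. Col6a2, a collagen VI chain, had 65.98 and 71.4 CPM in knockout cells and 52.1 and 47.3 CPM in AGN192403 cells, with 41.2 and 42.1 CPM in control cells (log2 fold change 0.47 ± 0.067 SE, adjusted p = 1.55e-05), with the knockout highest.

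Pdcd1, the gene of PD-1, did not separate the perturbations. It had 14.3 and 10.4 CPM in Tmed10 knockout cells, against 13.2 and 13.4 CPM in AGN192403-treated cells and 21.6 and 21.9 CPM in control cells (log2 fold change -0.05 ± 0.12 SE, adjusted p = 0.843). All 4 libraries were below both control libraries, and the knockout libraries spread across the AGN192403 values. Ctla4, another inhibitory receptor, had 154 and 145 CPM in Tmed10 knockout cells, against 117 and 117 CPM in AGN192403-treated cells and 187 and 192 CPM in control cells (log2 fold change 0.36 ± 0.049 SE, adjusted p = 6.76e-06). It was below control in both, further in AGN192403 cells. Tnfrsf9, the activation receptor CD137, had 906 and 879.9 CPM in knockout cells and 889 and 919 CPM in AGN192403 cells, with 936 and 935 CPM in control cells (log2 fold change -0.02 ± 0.038 SE, adjusted p = 0.821), and Entpd1, the ectoenzyme CD39, had 103 and 104 CPM in knockout cells and 107 and 104 CPM in AGN192403 cells, with 114 and 113 CPM in control cells (log2 fold change -0.03 ± 0.048 SE, adjusted p = 0.763). Cxcr6 and Ifng had log2 fold changes of 0.06 and -0.04 with adjusted p of 0.415 and 0.907. Over 19 inhibitory receptors and ligands 7 were higher in knockout cells and 1 lower (median 0.0541). Cd160 had 182 and 177 CPM in knockout cells and 115.3 and 123 CPM in AGN192403 cells, with 145 and 150.5 CPM in control cells (log2 fold change 0.59 ± 0.048 SE, adjusted p = 2.14e-09). Nt5e, the ectoenzyme CD73, had 102 and 96.9 CPM in knockout cells and 68.5 and 76.5 CPM in AGN192403 cells, with 71.7 and 72.9 CPM in control cells (log2 fold change 0.45 ± 0.057 SE, adjusted p = 2.37e-06). Both were above control in the knockout. Cd244a was higher by 0.48, with knockout at the control level, and Klrc1, an NK receptor of a family with near-identical copies, differed by -0.57, a call that was lost with DESeq2, with length and GC offsets and without either knockout library or AGN192403 replicate 2.

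Of 5 candidate cargoes of TMED10, a list the study itself chose, 3 were higher in knockout than in AGN192403 cells and 0 lower. Cxcr4, a chemokine receptor, had 49.1 and 50.1 CPM in knockout cells and 34.3 and 34.04 CPM in AGN192403 cells, with 49.7 and 49.4 CPM in control cells (log2 fold change 0.54 ± 0.067 SE, adjusted p = 1.85e-06), and its knockout libraries were at the control level. The call of Unc93b1 (log2 fold change 0.18 ± 0.061 SE, adjusted p = 0.0499) was lost in 8 of the alternatives tried. Among 20 costimulatory and activation receptors 4 were higher and 3 lower (2 or 3 higher and 1 or 2 lower without any 1 library), and the early activation marker Cd69 had 132 and 133 CPM in knockout cells and 165 and 170.1 CPM in AGN192403 cells, with 185 and 167 CPM in control cells (log2 fold change -0.34 ± 0.053 SE, adjusted p = 4.27e-05). Among 22 genes of the T cell receptor and its proximal signalling 10 were higher and 0 lower (median 0.113), with 5 without AGN192403 replicate 2 and 6 without AGN192403 replicate 1 or knockout replicate 1. Cd3e had 629 and 615 CPM in knockout cells and 527 and 519 CPM in AGN192403 cells, with 578 and 589 CPM in control cells (log2 fold change 0.25 ± 0.043 SE, adjusted p = 1.54e-04). Of 21 trafficking and homing receptors 11 were higher and 0 lower, Ccr7 among them (0.37).

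Cytotoxic genes were often below control in both perturbations, with 12 of 23 lower in knockout cells and 15 in AGN192403 cells. Directly compared, 8 were higher in knockout than in AGN192403 cells and 3 lower. The higher genes numbered 5 without knockout replicate 2 or AGN192403 replicate 1, and 1 was lower without replicate 2 of either group. Gzmg had 37.7 and 34.3 CPM in Tmed10 knockout cells, against 21.7 and 20.95 CPM in AGN192403-treated cells and 66.4 and 64.7 CPM in control cells (log2 fold change 0.77 ± 0.079 SE, adjusted p = 8.54e-08). Gzmd had 153 and 162 CPM in knockout cells and 109 and 105 CPM in AGN192403 cells, with 269.9 and 271 CPM in control cells (log2 fold change 0.55 ± 0.049 SE, adjusted p = 7.45e-09). Gzme differed by 0.54. These granzymes are near-identical neighbours, so the split of reads among them is uncertain. Of 22 effector and exhaustion transcription factors 11 were higher and 2 lower, with 4 higher without AGN192403 replicate 2 and 0 lower without knockout replicate 1. Tox, a factor of exhausted T cells, had 12.5 and 10.8 CPM in knockout cells and 9.19 and 6.79 CPM in AGN192403 cells, with 6.39 and 5.75 CPM in control cells (log2 fold change 0.60 ± 0.15 SE, adjusted p = 0.00615) and was above control in the knockout. The call of Tox was lost without knockout replicate 1 (0.467) and without AGN192403 replicate 2 (0.347). Prdm1, which encodes BLIMP1, had 31.7 and 29.5 CPM in knockout cells and 20.9 and 23.03 CPM in AGN192403 cells, with 36.7 and 36.1 CPM in control cells (log2 fold change 0.48 ± 0.081 SE, adjusted p = 1.36e-04). Of 27 cytokine genes 2 were higher and 3 lower (0 higher and 1 to 3 lower without any 1 library), with Csf1 at 11.4 and 9.61 CPM in knockout cells and 16.7 and 15.5 CPM in AGN192403 cells, with 19.9 and 18.9 CPM in control cells (log2 fold change -0.58 ± 0.13 SE, adjusted p = 0.00177).

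Egr1, an immediate early factor downstream of the T cell receptor and MAP kinases, was lower in both perturbations and lowest in the knockout. It had 115.2 and 118 CPM in Tmed10 knockout cells, against 223 and 216 CPM in AGN192403-treated cells and 373 and 372 CPM in control cells (log2 fold change -0.91 ± 0.048 SE, adjusted p = 1.18e-12), with no overlap among the 3 groups. Atf3, a stress-induced factor, was also lower in knockout cells, with 5.80 and 6.11 CPM in knockout cells and 9.41 and 10.1 CPM in AGN192403 cells, with 6.19 and 5.98 CPM in control cells (log2 fold change -0.73 ± 0.14 SE, adjusted p = 5.07e-04), but there the AGN192403 cells were above control. Junb, Jund and Jun, subunits of AP-1, were higher in knockout than in AGN192403 cells. Junb had 157 and 152 CPM in knockout cells and 128 and 122 CPM in AGN192403 cells, with 211 and 234 CPM in control cells (log2 fold change 0.31 ± 0.069 SE, adjusted p = 0.00207), Jund was higher by 0.41, and 4 of 22 immediate early genes were higher and 2 lower, with 2 higher and no call for Junb without AGN192403 replicate 2. Dusp4 and Dusp2, phosphatases that end MAP kinase signals, were lower in knockout cells, at -0.34 and -0.22 on the log2 scale, but the call of Dusp4 was lost without knockout replicate 2 and that of Dusp2 with DESeq2 and without any 1 library except AGN192403 replicate 1. No EGR element (GCGTGGGCG) was in the promoters found for 16 of the 22 immediate early genes and 11 of the 16 MAP kinase feedback genes. This says only that these letters are not in those windows. Of 16 NF-kB genes 4 were higher, against 0 without AGN192403 replicate 2 and 2 without any other library. Of 20 genes of the IL-2 receptor, STAT5 and SOCS list 8 were higher and 2 lower, Jak3 among the higher (0.27), with 1 higher, and no call for Jak3, without AGN192403 replicate 2 and 4 higher without knockout replicate 2.

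The glycolysis and interferon genes that passed the test were higher in knockout than in AGN192403 cells, by small amounts. Against control, 0 of 23 glycolysis genes were higher and 2 lower in knockout cells, and 1 was higher and 18 lower in AGN192403 cells. For the 43 interferon genes the counts were 1 higher and 3 lower in knockout cells, and 0 and 19 in AGN192403 cells. Of 23 genes of glycolysis and of glucose and lactate transport 15 were higher and 0 lower (median 0.169), and 5 without AGN192403 replicate 2 or 8 without knockout replicate 1. Slc2a3, a glucose transporter, had 517 and 517 CPM in knockout cells and 413 and 431 CPM in AGN192403 cells, with 594 and 603 CPM in control cells (log2 fold change 0.29 ± 0.042 SE, adjusted p = 1.28e-05), and Tpi1 and Hk1 were higher by 0.25 and 0.27. Of 43 interferon-stimulated genes 14 were higher and 0 lower (median 0.145), and 5 to 7 without any 1 library. Irf7 had 44.6 and 48.1 CPM in knockout cells and 34.03 and 32.8 CPM in AGN192403 cells, with 39.6 and 44.2 CPM in control cells (log2 fold change 0.47 ± 0.094 SE, adjusted p = 8.87e-04). An interferon response element was in 24 of 42 of their promoters (57.1%) and 3.44% of all. Of 19 antigen presentation genes 5 were higher, and 3 without either AGN192403 library. Of 18 hypoxia-inducible genes 8 were higher and 1 lower, and 3 to 5 were higher without any 1 library, the fewest without knockout replicate 1 or AGN192403 replicate 2.

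Some lists stayed near or under the share of all genes. Of 21 fatty acid oxidation genes 0 were called, of 74 nuclear genes of oxidative phosphorylation 1 was higher and 4 lower, and of 83 ribosomal protein genes 6 were higher and 1 lower (2 to 5 higher without any 1 library). Of 77 mitochondrial ribosomal protein genes 4 were lower, of 17 BCL2 family genes 1 was higher, and of 18 heat shock genes 1 was higher and 1 lower. None of the 4 imidazoline-site candidates tested and none of the 9 chemokine ligands was called in the main edgeR fit. At an unadjusted p of 0.05, 3 of the fatty acid oxidation genes, 0 of the imidazoline-site candidates and 2 of the chemokine ligands passed. DESeq2 called 0, 0 and 1 of them, edgeR with median-ratio size factors 2, 0 and 1, and edgeR with length and GC offsets 1, 0 and 1.

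Other lists held more calls in 1 direction than the share of all genes in that direction (8.83% higher, 7.78% lower), in part from few members. Of 38 nucleolar genes of ribosome biogenesis 10 were lower and 0 higher, but 2 were lower without knockout replicate 1, 6 without replicate 2 of either group and 3 with DESeq2. Of 20 genes of extracellular matrix and adhesion 6 were higher and 1 lower, with 3 higher without knockout replicate 1 or AGN192403 replicate 2. Of 26 p53 targets 4 were lower, and 1 or 2 without any 1 library. Of 14 metallothioneins and metal transporters 1 was higher and 3 lower, with 1 lower without knockout replicate 2. Of 16 MAP kinase feedback genes 1 was higher and 3 lower, with 0 higher without any 1 library and 1 lower without any 1 except AGN192403 replicate 1. Of 13 actin and SRF targets 2 were higher, and 1 without any 1 library. Of 7 nuclear long RNAs 1 was lower, and of 10 replication-dependent histones 1 was higher, while DESeq2 called 0 in either list. Of 7 mitochondrially encoded genes 3 were lower in knockout cells, and 1 with length and GC offsets, with mt-Nd5 at -0.28, and mitochondrial counts were at most 1.27% of the knockout libraries and at least 1.425% of the AGN192403 libraries.

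The sums of markers of other cell types rested mostly on 1 gene each. B cell markers summed to 162 to 164 CPM in knockout libraries and 139 to 143 CPM in AGN192403 libraries, with 2 of 3 tested genes higher and Ms4a1, Pax5, Blnk and Fcer2a at 0 counts in the 4 libraries. Ighm made up 154 to 156 CPM of it in knockout libraries and 133 to 138 CPM in AGN192403 libraries. Mast cell markers summed to 74.5 to 76.2 CPM in knockout libraries and 48.3 to 52.2 CPM in AGN192403 libraries, with Mcpt4, Fcer1a and Tpsb2 at 0, and nearly all of the sum was Kit. Myeloid markers summed to 53.9 to 54.1 CPM in knockout libraries and 50.6 to 53.2 CPM in AGN192403 libraries, with Csf1r, Adgre1, Fcgr1, Elane, S100a8, S100a9 and Siglech at 0. Cst3 was most of the myeloid sum. NK cell markers, nearly all of them Eomes, which CD8 T cells also express, summed to 159 to 164 CPM in knockout libraries and 130 to 138 CPM in AGN192403 libraries. Stromal and epithelial markers, mostly Pecam1, summed to 95.5 to 96.1 CPM in knockout libraries and 86.2 to 89.6 CPM in AGN192403 libraries, with Col3a1 and Krt8 at 0. The part of such cells in the results was not tested.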

How the data were processed

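RNA was sequenced from 12 libraries in 6 groups of 2, grouped by their labels. The 4 resting libraries of knockout and AGN192403 were compared, and the 2 resting control libraries gave the background. The deposited values are raw counts of reads in each gene. Per the labels the authors aligned with STAR 2.6.0c and counted with HTSeq on GRCm38 (mm10); the methods name another STAR version, stranded poly(A) libraries and single reads. No normalization was applied before deposit. The table has 46603 gene identifiers, and the 512 with no symbol in GENCODE M21 held 0.0709% of counts. They were not excluded from the filter or the tests. Genes were filtered by filterByExpr (13167 tested, 99.9% of counts) and fitted with edgeR 4.0.16 (R 4.3.3): TMM factors of 0.976 to 1.02, 1 mean per group, the quasi-likelihood F test with 6 residual degrees of freedom, and Benjamini-Hochberg adjustment over all genes at 0.05. Every adjusted p in the text is from this edgeR fit. The SE was derived from it, as the absolute log2 fold change divided by the square root of the F statistic. Totals were 16070889 and 9089350 counts in knockout libraries, 9283133 and 13697762 in AGN192403 libraries and 10055726 and 13274398 in control libraries. The fit was also run on simulated counts with planted changes. These counts were drawn with the spread estimated from the same libraries, so they cannot show whether replicates carry biological spread.

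The genes and lists (51 lists of genes and 8 of cell markers) were chosen with earlier results of these data known, so lists were described by counts and medians and not tested as sets. The rule for named genes took a fixed set of 10 (Tmed10 and its relatives Tmed2 and Tmed9, the receptors Pdcd1, Ctla4, Tnfrsf9 and Cxcr6, with Entpd1, Ifng and Egr1). It added the 15 largest rises and falls among called genes whose 4 libraries did not overlap and whose higher mean reached 10 CPM, and up to 4 called members of a list with 5 CPM or more. Other genes were named after their values were seen. Alternatives were a stricter filter or none, median-ratio size factors, library totals, a replicate block, leaving out each library, fewer libraries in the fit, DESeq2 1.42.0, and offsets for length and GC content (13119 genes). Promoter windows were from RefSeq and were matched by symbol, so not every list member had one. They covered 51 of 60 G2 and M phase genes and 35 of 47 S phase genes. For interferon genes they covered 33 of 43, and for lysosome genes 39 of 51. Guide sequences were not used here.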

Additional observations from a re-analysis of the deposited data

Results flagged for a closer look

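Hic1 differed between the states. Its difference of knockout against AGN192403 was 0.98 on the log2 scale in resting cells and -0.08 in activated cells, so it changed by -1.07 (edgeR interaction term, adjusted p = 0.000103). In resting cells both knockout libraries were above both AGN192403 libraries, which the rule for the largest rises required of every rise it named. Non-overlap in either direction was found in 57.5% of all genes tested.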

How the results depend on the processing

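DESeq2 called fewer genes than edgeR in each comparison, and the cause was not tested: 1283 against 2186 between knockout and AGN192403 (439 against 1024 lower), 386 against 979 between knockout and control, and 1946 against 3341 between AGN192403 and vehicle. Of its 1283 genes, 1253 were called by edgeR in the same direction. Leaving out 1 library at a time gave 1056 to 1511 called genes, 475 to 747 of them higher and 533 to 803 lower. Fitting fewer groups raised the count, to 3039 with only the 4 libraries of the comparison and 2621 with only the 6 resting libraries. Without an expression filter 41.2% of calls were higher, against 53.2% with it. With the replicate number as a block 2502 genes were called, but the deviations of same-numbered knockout and AGN192403 libraries correlated at -0.00461, so the numbers were not taken as pairing. No gene called between knockout and AGN192403 was called in the opposite direction under any alternative run. Among named genes that had not passed, Tnfrsf9 changed sign to 0.00934 with median-ratio size factors, 0.00939 with DESeq2 and 0.0254 with length and GC offsets. Without 1 library Tnfrsf9 ran from -0.0576 to 0.00412, Pdcd1 from -0.359 to 0.107 and Ifng from -0.195 to 0.0394. Over the named genes and all alternatives, 2249 values kept their direction and side of the threshold and 212 lost their call. Unc93b1, Mrpl10, Mdm2 and Errfi1, all within 0.2 of 0 on the log2 scale, lost theirs most often.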
